A study of Mus musculus with 2 samples.

Results

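Capillaries of muscle, heart and fat take fatty acids from the blood with a small set of genes, and 8 of these were followed here through the cells of the mouse temporomandibular joint (TMJ, the jaw joint). The genes were Lpl, Gpihbp1, Cd36, Fabp4, Fabp5, Pparg, Meox2 and Tcf15, taken by symbol from the 32285 genes of the count tables, and each symbol matched 1 gene. All mice were female wild-type C57BL/6 animals, 8 to 10 weeks old. They received 10 µL of PBS or of complete Freund's adjuvant (CFA, killed mycobacteria in oil, which inflames a joint) in both TMJs, and the tissue was taken 3 weeks later. Each condition was 1 single-cell RNA library, pooled from 3 mice by the study's methods and depleted of CD45+ immune cells with magnetic beads. There were therefore no replicates. All intervals are exact 95% intervals that cover counting error only, and no difference between PBS and CFA was tested against the spread between animals.

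Lipoprotein lipase (Lpl) splits the triglycerides of lipoproteins into fatty acids at the capillary wall. Gpihbp1 is the endothelial protein that carries it from the tissue across the capillary and holds it at the luminal surface. Cd36 is a fatty acid receptor of the plasma membrane, and Fabp4 and Fabp5 bind fatty acids inside the cell. Pparg is a nuclear receptor that binds fatty acids and drives lipid genes, while Meox2 (a homeobox factor) and Tcf15 (a basic helix-loop-helix factor) act as a dimer in the endothelium of heart and muscle and drive Cd36 and Lpl there.

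After removal of barcodes with fewer than 500 genes, more than 10% mitochondrial UMIs (unique molecular identifiers, 1 per captured transcript) or more than 1% hemoglobin UMIs, 2667 PBS cells with 27201994 UMIs and 4014 CFA cells with 44432717 UMIs remained. The libraries stood apart in blood content. Hemoglobin genes took 20.7% of all PBS UMIs and 7.89% of all CFA UMIs, and the hemoglobin limit removed 3178 PBS and 339 CFA barcodes. The libraries shared 10 barcodes, 2 of them among the kept cells. Levels are given as CPM, the UMIs of a gene per 1000000 UMIs of the cells of a group. A UMI tags the 3' end of a transcript, so a level is not scaled by gene length.

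The 8 genes lie on 7 chromosomes of GRCm38: Lpl at chr8:68880491-68907448, Gpihbp1 at chr15:75596628-75599481, Cd36 at chr5:17781690-17888801 on the minus strand, Fabp4 at chr3:10204088-10208576 on the minus strand, Fabp5 at chr3:10012548-10016607, Pparg at chr6:115360951-115490399, Meox2 at chr12:37108540-37179534 and Tcf15 at chr2:152143561-152149097, the others on the plus strand. Promoters are shown for the receptor Cd36 and the factors Pparg and Meox2, the 3 of the 8 genes matched in the RefSeq promoter table used, to show where the motifs of such factors occur in them. Those of Lpl, Gpihbp1, Fabp4, Fabp5 and Tcf15 were not analysed here. The printed promoters are the 250 bases before a RefSeq start on GRCm38.p6 (chr5:17835897-17836146 minus strand, chr6:115360894-115361143 and chr12:37108290-37108539 plus strand). Capitals mark AGGTCA, the homeobox core TAATTA and CANNTG, the E-box of basic helix-loop-helix factors, searched on both strands. AGGTCA is only a part of the sites that nuclear receptors such as Pparg bind. A lone copy is not a full Pparg site, and the direct repeat of AGGTCA is counted separately below.
Cd36: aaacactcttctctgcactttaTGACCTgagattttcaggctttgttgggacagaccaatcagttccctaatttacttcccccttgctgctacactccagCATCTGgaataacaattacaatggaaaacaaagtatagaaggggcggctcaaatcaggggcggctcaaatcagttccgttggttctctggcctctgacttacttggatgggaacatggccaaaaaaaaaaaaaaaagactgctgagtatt
Pparg: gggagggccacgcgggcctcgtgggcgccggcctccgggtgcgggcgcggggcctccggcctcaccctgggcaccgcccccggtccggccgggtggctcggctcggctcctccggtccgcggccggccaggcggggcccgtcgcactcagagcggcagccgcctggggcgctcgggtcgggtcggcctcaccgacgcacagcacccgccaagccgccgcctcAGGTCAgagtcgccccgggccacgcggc
Meox2: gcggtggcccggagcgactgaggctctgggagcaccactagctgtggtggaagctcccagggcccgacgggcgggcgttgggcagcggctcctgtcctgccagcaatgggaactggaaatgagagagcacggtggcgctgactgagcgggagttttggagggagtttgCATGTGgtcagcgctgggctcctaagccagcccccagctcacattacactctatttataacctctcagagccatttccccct
The Cd36 run held AGGTCA 228 bases before the start, on the opposite strand and so printed as its reverse complement, and an E-box 150 bases before it. The first Pparg start had AGGTCA 28 bases before it, and Meox2 had an E-box 82 bases before its start. No 2 of these motifs overlapped in the printed runs. AGGTCA was found in 3 of the 5 promoters that RefSeq gives for these 3 genes, and in 14.0% of all 32851 mouse promoters of that length. CANNTG was found in 4 of the 5 and in 66.2% of all. TAATTA was in none of the 5 and in 4.84% of all, and the direct repeat of AGGTCA with 1 base between its copies in none of the 5 and in 0.0335% of all. A match of letters is a description of the sequence and does not show binding.

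Endothelial-like cells, named by markers that include none of the 8 genes, had the highest level of 6 of them. There were 705 such cells in PBS (26.4%) and 975 in CFA (24.3%), with a median of 5582 and 4629 UMIs, and every cluster among them had 8 of the 8 endothelial markers. Gpihbp1, Cd36, Fabp4, Pparg, Meox2 and Tcf15 were highest in endothelial-like cells among the classes of at least 50 cells in both libraries. Of all 10333 genes ranked in this way, 9.14% were highest in endothelial-like cells in both libraries. The 8 genes were chosen as genes of capillaries with earlier results of these data known, so this share is no test of them.

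**Figure D1:**
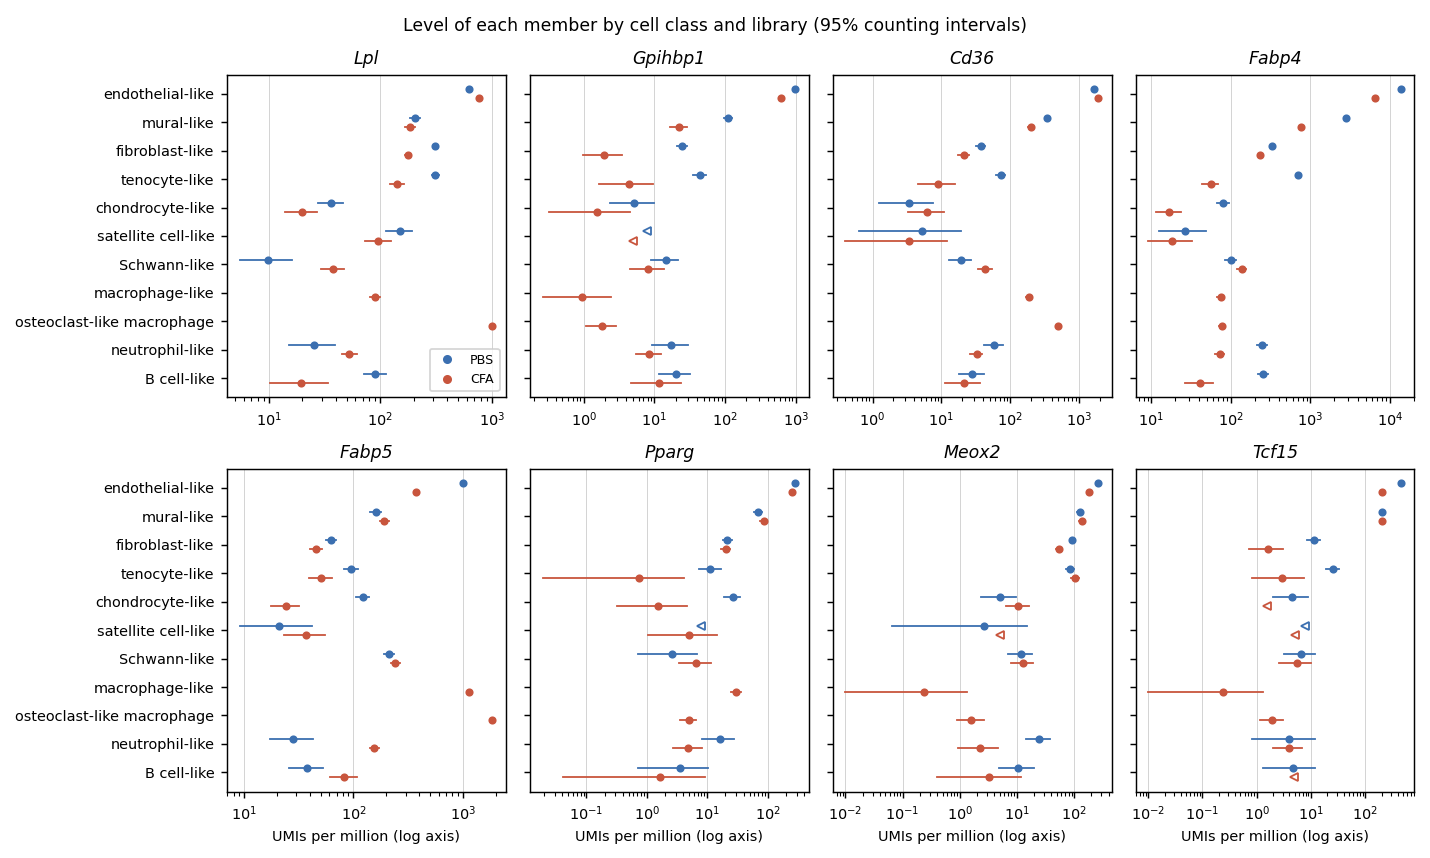
Level of each of the 8 genes (CPM, log axis) in each named cell class of at least 50 cells of the PBS and the CFA library, with exact 95% Poisson intervals. The endothelial-like cells lead for Gpihbp1, Cd36, Fabp4, Pparg, Meox2 and Tcf15 in both libraries (Tcf15 in CFA by less than counting error, 202.8 against 201.8 CPM in mural-like cells), whereas in CFA Lpl and Fabp5 are higher in osteoclast-like macrophages (1008 and 1867 CPM).

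Gpihbp1 was the most restricted of the 8 genes, with 88.6% of its UMIs in the endothelial-like cells of PBS and 90.1% of those of CFA. Its level was 984.9 CPM in PBS endothelial-like cells and 625.9 in CFA, and the next class of at least 50 cells, the mural-like cells (pericytes and vascular smooth muscle), was 8.90-fold and 28.2-fold lower. Mural-like cells came second for Fabp4 as well, at 2809 CPM in PBS and 772.2 in CFA against 14094 and 6609 in endothelial-like cells. Cd36 stood at 1668 and 1901 CPM in endothelial-like cells. The class next to it was mural-like in PBS (338.9 CPM) and the osteoclast-like macrophages in CFA (493.5 CPM). In mural-like cells of PBS and CFA, Gpihbp1 stood at 11.2 and 3.54% of its endothelial level, Fabp4 at 19.9 and 11.7% and Cd36 at 20.3 and 10.6%. There 6 endothelial naming markers stood at 10.9 to 19.5% in PBS and 4.89 to 9.05% in CFA. How much of these mural-like levels was stray RNA from endothelial cells was not tested.

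The 3 transcription factors were shared with mural-like cells to different degrees. Pparg was 280.0 CPM in PBS and 247.9 in CFA endothelial-like cells, 4.03-fold and 2.90-fold above mural-like cells. Meox2 was 257.1 and 180.9 CPM in endothelial-like cells against 126.3 and 138.4 in mural-like cells. Tcf15 was 453.6 and 202.8 CPM against 202.7 and 201.8, so that in CFA the 2 classes differed by less than their counting error. In mural-like cells 6 of the endothelial naming markers stood at 10.9 to 19.5% of their endothelial level in PBS and at 4.89 to 9.05% in CFA, below the 49.1 and 76.5% of Meox2 and the 44.7 and 99.5% of Tcf15. Meox2 was also detected in fibroblast-like cells (91.6 and 54.2 CPM) and tenocyte-like cells (85.0 and 103.0 CPM).

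Lpl and Fabp5 had other large sources. Among the PBS classes of at least 50 cells, Lpl was highest in endothelial-like cells (626.6 CPM), followed by tenocyte-like (312.0) and fibroblast-like cells (311.9). The 35 osteoblast-like cells of PBS had a higher level, 1003 CPM (919.2 to 1093), and 522 of their 525 Lpl UMIs came from 14 cells that also had the adipocyte gene Adipoq. In CFA, 272 osteoclast-like macrophages, a class with 1 cell in PBS, had 1008 CPM and held 53.0% of all Lpl UMIs, while endothelial-like cells had 773.6 CPM and held 29.3%. The same class held 62.8% of all Fabp5 UMIs of the CFA library at 1867 CPM and 22.8% of its Cd36 UMIs. Macrophage-like cells of CFA had 1146 CPM of Fabp5 and endothelial-like cells 374.5. Over all kept cells Lpl was 278.3 CPM in PBS and 400.9 in CFA. Fabp5 was 676.5 and 626.9 CPM, but 13 PBS barcodes of an unnamed cluster, all with UMIs of the keratin gene Krt14, held 10364 of its 18403 PBS UMIs, and without them PBS was at 302.0 CPM.

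The share of cells with at least 1 UMI was read after thinning each cell to 1000 UMIs, with Schwann-like cells as the background, since Schwann-like cells had a median of 3832 UMIs in PBS and 3433 in CFA. Fabp4 was found in 93.8% of thinned endothelial-like cells of PBS and 90.9% of CFA (96.6 and 96.0% before thinning), against 5.02 and 4.40% of thinned Schwann-like cells. Cd36 was found in 75.7 and 79.5% against 1.0 and 4.12%, and Gpihbp1 in 57.1 and 45.4% against 0 and 1.10%. Lpl was found in 41.9 and 51.1% of thinned endothelial-like cells, Tcf15 in 33.5 and 22.5%, Meox2 in 22.4 and 17.4% and Pparg in 21.9 and 23.1%, and none of these 4 was in more than 2.20% of thinned Schwann-like cells. Fabp5 was the gene found in the largest share of thinned Schwann-like cells. Its level there was 21.2% of its endothelial level in PBS and 64.3% in CFA. For 6 endothelial naming markers these values were 1.56 to 3.54% and 0.893 to 4.08%. Schwann-like cells were therefore no background for Fabp5. It was in 43.0 and 27.5% of thinned endothelial-like cells, in 16.1 and 12.6% of Schwann-like cells and in 1.79 and 2.33% of satellite cell-like cells, so that its share in Schwann-like cells was not the same low share in all classes.

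Within the endothelium all 8 genes were highest in the capillary-like cells in both libraries. The share of all genes that are highest there was not counted. Reclustering without the 8 genes and the pathway genes gave capillary-like, arterial-like and venular-like cells. The venular-like cells were named by Plvap, Aplnr, Vcam1, Selp, Sele, Ackr1 and Lrg1. The paper names endothelial cells marked by Plvap, Aplnr and Vcam1 capillary cells, and vessel size was not measured here. The smallest lead of capillary-like over arterial-like cells was 1.31-fold, that of Cd36 in PBS. Capillary-like cells were 511 of the 705 in PBS (72.5%, 69.0 to 75.7) and 702 of the 975 in CFA (72.0%, 69.1 to 74.8). They had fewer UMIs than the venular-like cells, with medians of 5061 and 3946 against 11430 and 14432. The 2 capillary-like clusters expressed Aqp1, Car4, Cd300lg, Rgcc and Timp4 as markers, and one of them also Btnl9. A thinned capillary-like cell showed on average 4.33 of the 8 genes in PBS and 4.16 in CFA, an arterial-like cell 3.35 and 2.5, and a venular-like cell 1.84 and 1.72.

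Lpl had the steepest gradient between vessel types. It was 872.5 CPM in capillary-like, 257.4 in arterial-like and 135.0 in venular-like cells of PBS, and 1461, 213.9 and 65.3 CPM in CFA. The ratio of capillary-like to venular-like cells was 6.46 in PBS and 22.4 in CFA. Gpihbp1, the partner of Lpl at the capillary wall, had a shallower gradient, with 1240, 706.8 and 387.2 CPM in PBS and 1006, 312.7 and 236.2 CPM in CFA.

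Cd36 was also high in arterial-like cells. Its levels in capillary-like, arterial-like and venular-like cells were 2050, 1570 and 508.0 CPM in PBS and 3156, 1334 and 443.4 CPM in CFA, so that arterial-like cells were 3.09-fold and 3.01-fold above venular-like cells. Fabp4, the most abundant of the 8, was 16703, 12059 and 7308 CPM in PBS and 8981, 5001 and 4047 CPM in CFA. Even the lowest of these levels was above that of any other member in any endothelial subtype. Fabp5 was 1283, 454.7 and 541.1 CPM in PBS and 500.3, 234.8 and 258.5 CPM in CFA, and its arterial-like and venular-like levels in CFA did not differ beyond counting error (ratio 0.908, 0.774 to 1.06).

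Among the factors, Tcf15 separated arterial-like from venular-like cells most. Its levels in capillary-like, arterial-like and venular-like cells were 571.3, 421.5 and 97.5 CPM in PBS and 326.6, 158.0 and 55.0 CPM in CFA. Pparg was 337.2, 224.2 and 140.4 CPM in PBS and 388.5, 145.9 and 98.4 CPM in CFA. Meox2, the dimer partner of Tcf15, had the flattest profile, with 301.8, 226.3 and 137.7 CPM in PBS and 230.8, 132.7 and 132.3 CPM in CFA, where arterial-like and venular-like cells were level. In all, 6 of the 8 genes were at least 2-fold higher in capillary-like than in venular-like cells in both libraries, against 2.82% of the 6251 genes compared, the exceptions being Fabp5 (1.94 in CFA) and Meox2 (1.74 in CFA). Fabp4, at 2.29 and 2.22, was the nearest to the limit. The 8 genes were chosen as capillary genes with earlier results of these data known, and the paper lists Lpl as a marker of its Car4 capillary cells. The count is therefore a description and no test of the list.

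**Figure D2:**
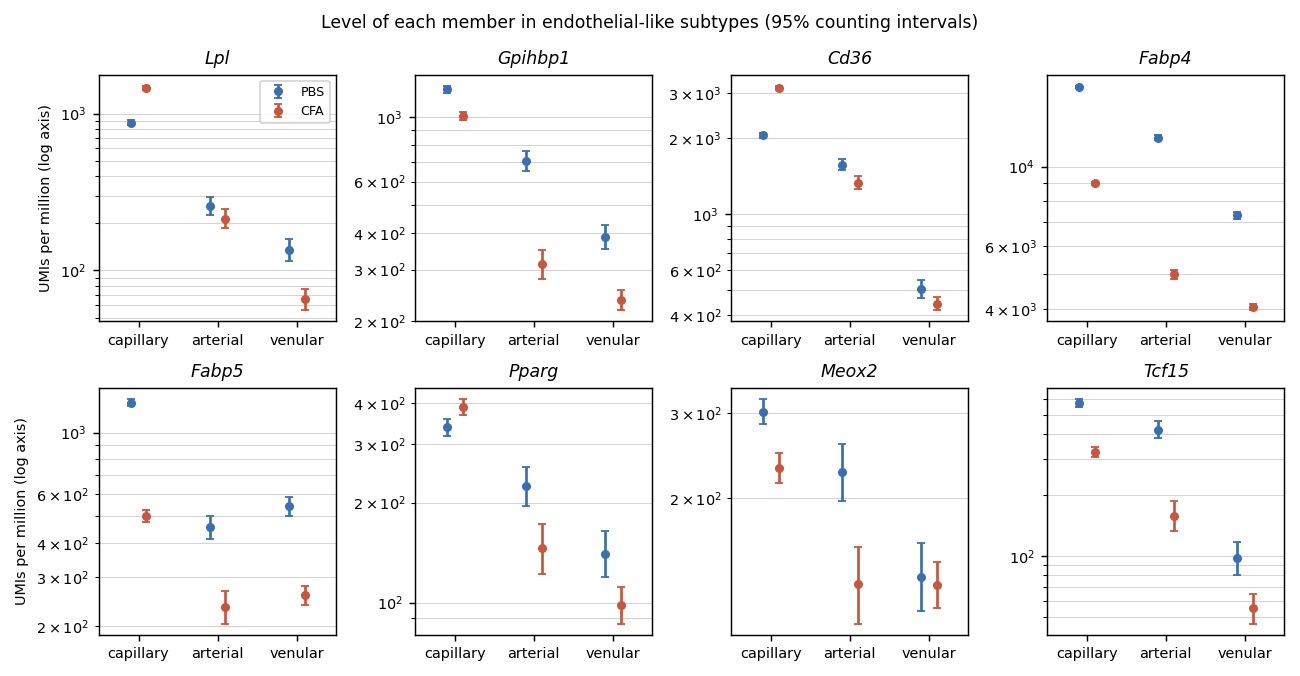
Level of each gene (CPM, log axis) in capillary-like, arterial-like and venular-like cells of the PBS and the CFA library, with exact 95% Poisson intervals. Lpl shows the widest spread between subtypes (872.5 to 135.0 CPM in PBS, 1461 to 65.3 in CFA) and Fabp4 stays above every other gene.

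The 2 capillary-like clusters differed from each other in the fatty acid binding proteins. The second cluster (238 cells in PBS, 230 in CFA) had 2.27-fold and 2.21-fold more Fabp5, 1.65-fold and 1.73-fold more Fabp4 and 1.44-fold and 1.40-fold more Gpihbp1 than the first (273 and 472 cells). Its cells were also deeper, with medians of 8377 and 6008 UMIs against 3831 and 3492. Their median mitochondrial share was 1.74% in PBS and 0.890% in CFA, against 1.15 and 0.228% in the first cluster. Cd36 and Pparg went the other way, at 0.770 and 0.831 for Cd36 and 0.735 and 0.621 for Pparg. The directions were alike in both libraries. Fabp5, Fabp4 and Gpihbp1 are short genes (4.06, 4.49 and 2.85 kb), and Cd36 and Pparg are long (107.1 and 129.4 kb). The part of depth, mitochondrial share and gene length in these differences was not tested.

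Between the conditions, the 8 genes did not move together. In capillary-like cells Lpl was higher in CFA than in PBS by 1.67-fold (1.60 to 1.75) and Cd36 by 1.54-fold (1.49 to 1.59). Fabp5 stood at 0.390 of its PBS level (0.368 to 0.412), Fabp4 at 0.538 (0.530 to 0.545) and Tcf15 at 0.572 (0.531 to 0.616). The remaining members lay within 1.5-fold, with Gpihbp1 at 0.811, Meox2 at 0.765 and Pparg at 1.15. The call for Cd36 lay close to the limit and was kept in 9 of 12 repeats with other settings (1.44 to 1.60), whereas that for Lpl was kept under all 12 (1.63 to 1.81). Thus 2 of the 8 genes were at least 1.5-fold higher and 3 at least 1.5-fold lower. Of the 6441 genes compared, 11.8% were higher by that much and 14.6% lower. Among genes of at most 10 kb, which include Fabp4, Fabp5 and Tcf15, 44.9% were lower by that much. The median ratio of the 8 was 0.788 against 1.03 for all genes.

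**Figure D3:**
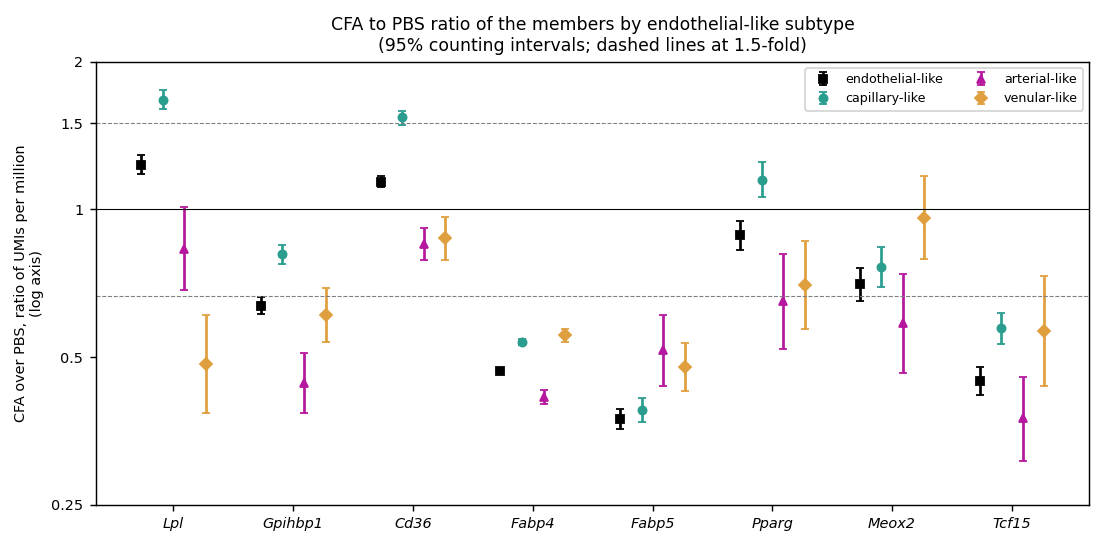
Ratio of the CFA level to the PBS level of each gene (log axis) in endothelial-like cells and in the capillary-like, arterial-like and venular-like cells, with exact conditional 95% intervals and lines at 1.5-fold in either direction. Lpl and Cd36 lie above 1 in capillary-like cells (1.67 and 1.54) and below 1 in venular-like cells (0.484 and 0.873), and Fabp4 and Fabp5 lie below 1 in all 4 groups.

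For Lpl, Cd36, Fabp5 and Tcf15 the share of capillary-like cells with a UMI moved in the same directions after thinning. Lpl was found in 52.6% of thinned capillary-like cells of PBS (48.2 to 57.0) and 67.5% of CFA (63.9 to 70.9), and Cd36 in 82.0 and 92.3%. Fabp5 was found in 49.3% (44.9 to 53.7) and 29.7% (26.3 to 33.2), and Tcf15 in 38.9 and 27.0%. Fabp4 was at 97.3% in both. Before thinning Pparg was found in 68.5 and 60.7% of capillary-like cells although its CPM was not lower in CFA, and its thinned shares were 25 and 27.7%.

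Lpl and Cd36 had no such higher level in the arterial-like and venular-like cells. In arterial-like cells Lpl stood at 0.831 of its PBS level (0.684 to 1.01) and Cd36 at 0.850 (0.787 to 0.917), and in venular-like cells Lpl stood at 0.484 (0.385 to 0.608). The genes that were lower in capillary-like cells were lower in these subtypes as well. Fabp4 stood at 0.415 and 0.554 in arterial-like and venular-like cells, Fabp5 at 0.516 and 0.478, and Tcf15 at 0.375 and 0.564. Gpihbp1, within 1.5-fold in capillary-like cells, stood at 0.442 (0.384 to 0.509) and 0.610 (0.538 to 0.692). With 1 library a condition, the difference between vessel types in the CFA to PBS ratio was not tested.

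Over all endothelial-like cells the ratios were lower, and the share of UMIs from each vessel type differed between the libraries. Gpihbp1 (0.636), Fabp4 (0.469), Fabp5 (0.374) and Tcf15 (0.447) were at least 1.5-fold lower in CFA and none of the 8 was 1.5-fold higher. Of the 6633 genes compared, 7.48% were lower and 7.54% higher by that much. The lower members all span at most 10 kb, and 22.4% of genes of that length were lower by that much. Lpl was at 1.23 and Cd36 at 1.14, and neither direction was stable: among endothelial-like cells with more than 1% mitochondrial UMIs they were at 0.671 and 0.687, and with each cell given equal weight at 1.72 and 1.37. With that weight Lpl passed 1.5-fold and Gpihbp1, at 0.786, no longer did. Capillary-like cells gave 63.9% of the endothelial UMIs in PBS and 49.3% in CFA, and venular-like cells 19.7 and 37.2%. Counted as cells, the capillary-like share was nearly the same, 72.5 and 72.0%, and the venular-like share was 11.3 and 15.6%. With the PBS levels weighted by the CFA shares of UMIs, the ratio was 1.5 for Lpl, 1.35 for Cd36, 0.736 for Gpihbp1, 0.525 for Fabp4, 0.418 for Fabp5 and 0.541 for Tcf15.

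The mitochondrial share of UMIs moved with the condition in the capillary-like cells. Its median was 1.49% in PBS and 0.324% in CFA, and 26.6% of PBS but 80.5% of CFA capillary-like cells had at most 1%. In arterial-like cells these shares were 8.77 and 30.6%, and in venular-like cells 2.5 and 9.87%. The ratios of the 8 genes were therefore also taken within bins of mitochondrial share. From the lowest bin (at most 0.5%) to the highest (2 to 10%), the CFA to PBS ratio of Lpl was 2.13, 2.20, 1.66 and 1.15, the last with an interval (0.994 to 1.33) that includes 1. That of Fabp5 was 0.732, 0.707, 0.467 and 0.447, below 1 in each bin beyond counting error. That of Fabp4 was 0.953, 0.841, 0.653 and 0.497 and that of Tcf15 0.986, 0.689, 0.571 and 0.423, so both were near 1 where the mitochondrial share was lowest. Cd36 was at 1.30, 1.18, 1.47 and 1.05. The lowest bin held 41 PBS cells and the highest 35 CFA cells.

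**Figure D4:**
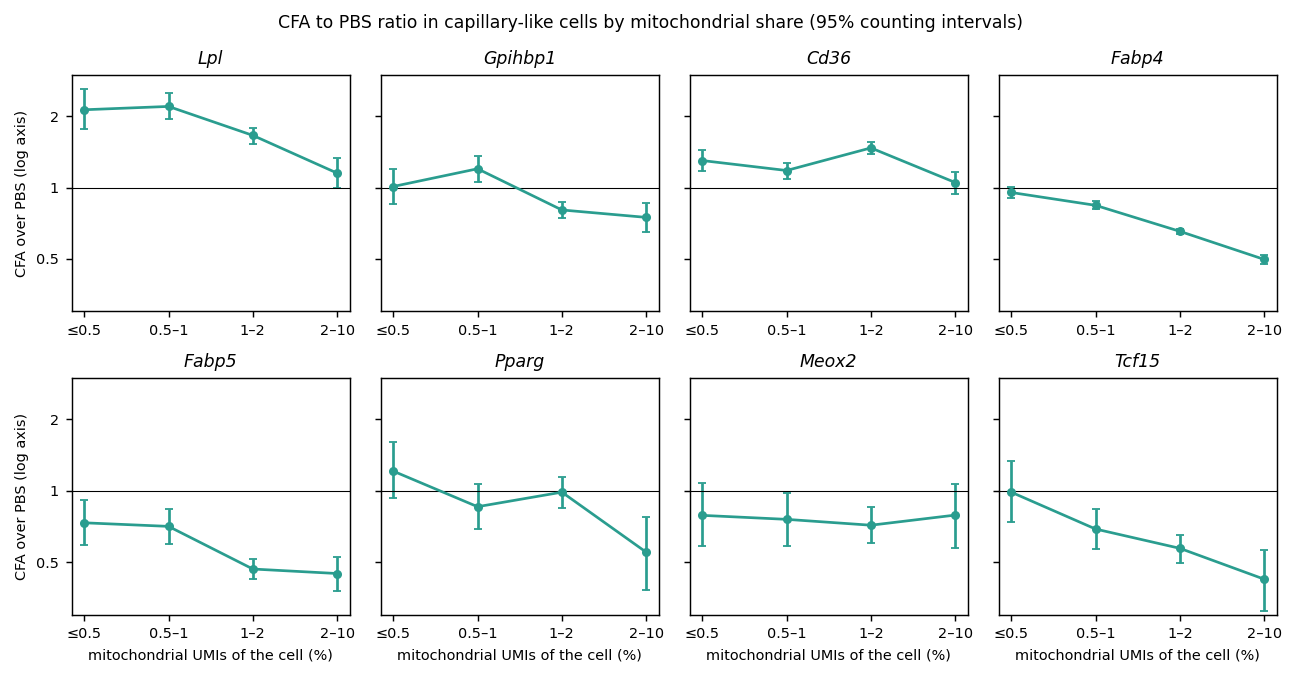
CFA to PBS ratio of each gene in capillary-like cells (log axis) within 4 bins of the mitochondrial share of a cell's UMIs, with exact conditional 95% intervals. Lpl goes from 2.13 in the lowest bin to 1.15 in the highest, Fabp4 from 0.953 to 0.497, and Fabp5 lies below 1 in all 4.

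Gene length moved with the condition as well. In capillary-like cells the median CFA to PBS ratio was 0.689 for genes of at most 10 kb, 0.961 for genes of 10 to 50 kb and 1.24 for longer genes. Arterial-like cells had medians of 0.796, 0.963 and 1.15 and venular-like cells 0.891, 1.02 and 1.04. Gpihbp1 (2.85 kb), Fabp5 (4.06 kb), Fabp4 (4.49 kb) and Tcf15 (5.54 kb) are short, Lpl has 27.0 kb, and Meox2 (71.0 kb), Cd36 (107.1 kb) and Pparg (129.4 kb) are long. Relative to the median of genes of like length, Lpl was at 1.74 (95.4% of those genes were lower), Cd36 at 1.25 (82.7%), Gpihbp1 at 1.18 (70.2%), Tcf15 at 0.830 (24.6%), Fabp4 at 0.781 (17.6%), Meox2 at 0.619 (6.01%) and Fabp5 at 0.566 (3.46%). On that scale Lpl was past 1.5-fold higher and Fabp5 and Meox2 past 1.5-fold lower, and Cd36, Fabp4 and Tcf15 were not past it. The part of gene length and of mitochondrial share in these ratios was not tested further.

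Markers of other cell types were low in the endothelial-like cells and differed between the libraries in both directions. The summed level of 7 mural markers was 249.6 CPM in PBS and 58.7 in CFA, and that of the fibroblast markers 377.1 and 132.7, against 8869 and 8241 CPM for the 8 endothelial markers. Adipocytes express Lpl, Cd36, Fabp4 and Pparg strongly. Their 7 other markers summed to 2.64 and 0.889 CPM, with 2 of them at 0 in PBS and 5 in CFA. The erythroid markers were at 412.6 and 133.3 CPM, the Schwann markers at 187.0 and 45.3 and the macrophage markers at 17.9 and 36.9. In capillary-like cells the mural markers were at 130.9 and 18 CPM and the fibroblast markers at 198.9 and 175.5. The neutrophil markers there were at 115.8 CPM in PBS and 399.3 in CFA and the osteoclast-like macrophage markers at 9.63 and 81.1, both moving with Lpl and Cd36, and their part in those ratios was not tested.

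The wider pathway was taken as 83 further genes of lipolysis, uptake and activation, oxidation, storage, and transcription and signals. Of these, 42 had a mean of at least 20 CPM in capillary-like cells, and 1 was at least 1.5-fold higher and 6 at least 1.5-fold lower in CFA, with a median ratio of 0.914. In endothelial-like cells 41 were compared, 1 higher and 5 lower, with a median of 0.873. Against the shares of all genes given above, the higher pathway genes were fewer in both. The lower ones were about as many in capillary-like cells (14.6% of all genes) and somewhat more in endothelial-like cells (7.48%). In capillary-like cells Sel1l (55.8 CPM in PBS and 83.5 in CFA) and Notch1 (175.8 and 263.5) fell just short of 1.5-fold higher.

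In lipolysis 1 of 8 genes was higher in capillary-like cells, Lipe (hormone-sensitive lipase), at 129.0 CPM in PBS and 210.6 in CFA (1.63-fold, 1.45 to 1.84). Scarb1, the HDL receptor, was at 315.8 and 401.1 CPM, and Mgll, which splits monoglycerides, at 909.4 and 814.3. In uptake and activation 1 of 8 was lower, Dbi, the acyl-CoA binding protein, at 163.1 and 89.2 CPM (0.547, 0.474 to 0.630). The caveolar genes Cav1 (2178 and 2098 CPM) and Cavin2 (1490 and 1431 CPM) were nearly level. In oxidation 1 of 9 was lower, Ech1, an isomerase of unsaturated fatty acid breakdown, at 88.3 and 50.2 CPM. Cpt1a, which admits fatty acids into mitochondria, was at 32.7 and 39.1 CPM, with an interval of the ratio (0.923 to 1.54) that includes 1. In storage none of 3 passed 1.5-fold, and Plin2, a lipid droplet coat protein, was at 42.4 and 37.3 CPM.

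In transcription and signals 4 of 14 genes were lower in capillary-like cells and none was higher. Rxrb, a retinoid X receptor of the family that pairs with Pparg, was at 31.6 CPM in PBS and 15.6 in CFA. Tcf3, an E protein of the family that pairs with factors such as Tcf15, was at 95.2 and 57.7 CPM, while the E proteins Tcf4 (2439 and 2448 CPM) and Tcf12 (582.6 and 821.5 CPM) were not lower. Meox1, the paralog of Meox2, was at 42.9 and 20.4 CPM in capillary-like cells (0.476, 0.353 to 0.637) but at 43.3 and 67.0 CPM in all endothelial-like cells (1.55, 1.32 to 1.82). Aplnr, the apelin receptor and one of the markers used to name venular-like cells, was at 417.6 and 129.5 CPM. Flt1, a VEGF receptor used to name the endothelium, was at 3036 and 4412 CPM (1.45-fold).

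**Figure D5:**
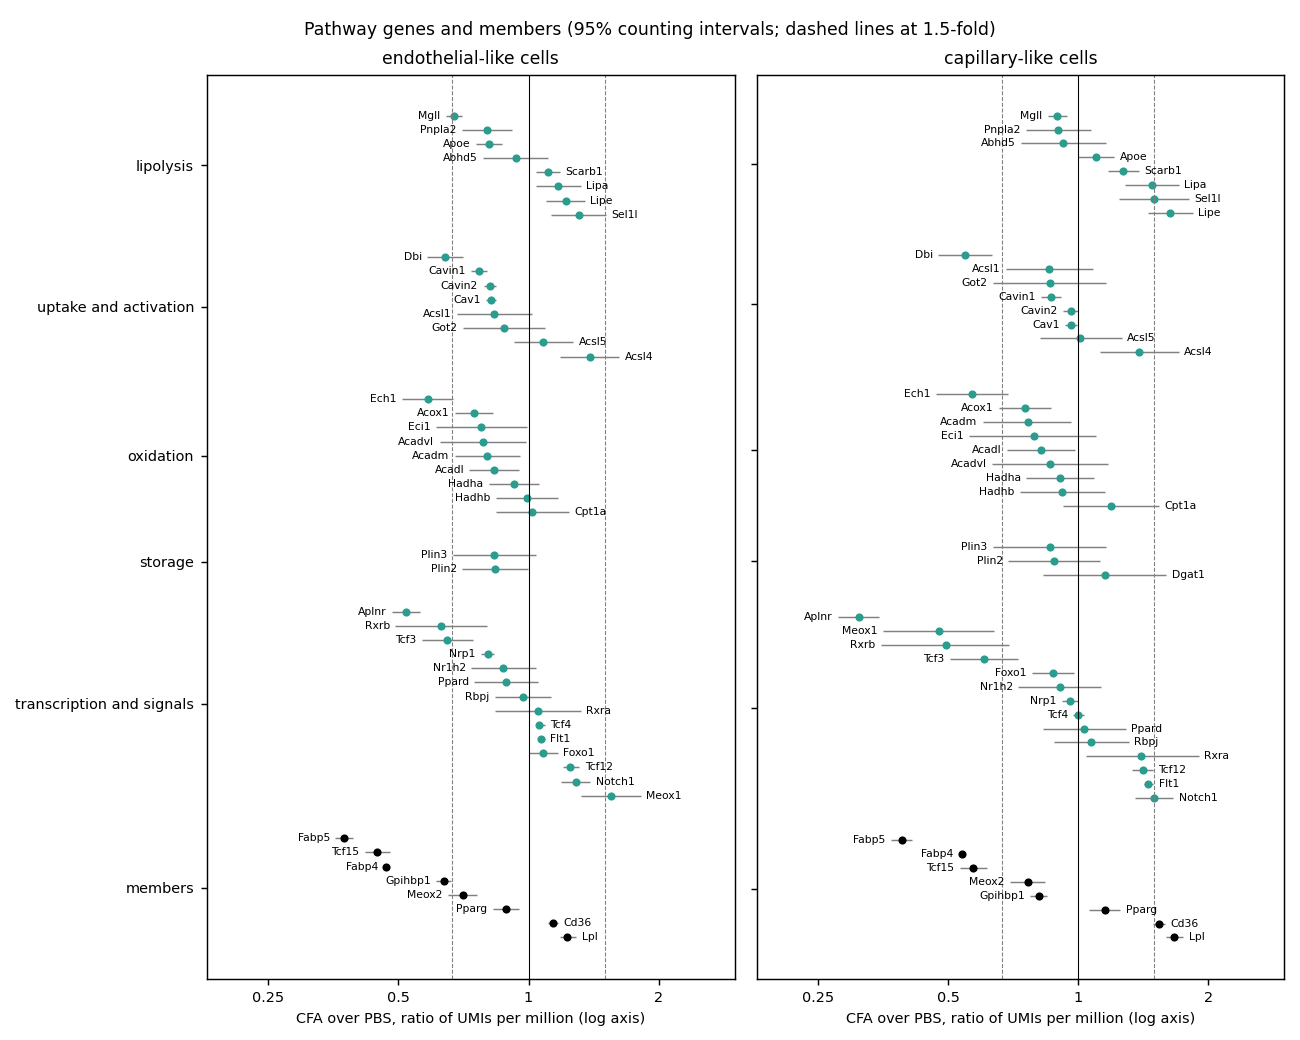
CFA to PBS ratio (log axis) of the 8 genes and of the pathway genes with a mean of at least 20 CPM, by list. Endothelial-like cells are on the left and capillary-like cells on the right, with lines at 1.5-fold in either direction. Apart from the 8 genes, in capillary-like cells Lipe (1.63) lies above the upper line. Dbi, Ech1, Rxrb, Meox1, Tcf3 and Aplnr lie below the lower one there. In endothelial-like cells Meox1 (1.55) lies above the upper line and Dbi, Ech1, Rxrb, Tcf3 and Aplnr below the lower one.

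The genes most like each member in their levels over the classes and endothelial subtypes were sought among 8299 genes at 24 points, which share their libraries and, for subtypes, their cells. Gpihbp1 was closest to Cd300lg, C1qtnf9 and Kdr (Pearson r 0.987, 0.987 and 0.986). Fabp4 was closest to Flt1, Gpihbp1 and Adgrf5 (0.960 each), and Cd36 to F11r, Pdgfb and Prkch (0.949, 0.948 and 0.938). Tcf15 was closest to the potassium channel gene Kcna5 (0.979), then Kitl and Esam (0.947 and 0.942). Pparg was closest to Kitl, Fabp4 and Flt1 (0.928, 0.928 and 0.924), and Meox2 to Pdgfd, Tspan9 and Fat4 (0.960, 0.939 and 0.932). Lpl and Fabp5 had no close partner, the nearest being Mgmt, Stx3 and BC005537 for Lpl (0.757, 0.740 and 0.720) and Sgk1, Disc1 and Rab5c for Fabp5 (0.837, 0.835 and 0.833). Cd300lg, Kdr, Flt1, Esam and Sgk1 are themselves markers used to name these cells. These correlations are across groups of cells and describe likeness of pattern.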

How the data were processed

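Levels came from the UMI count matrices that the authors deposited, 1 for PBS (7671 barcodes, 51146169 UMIs) and 1 for CFA (5709 barcodes, 53517206 UMIs). Per the study's methods, the authors made these counts with Cell Ranger 7.0.1 on GRCm38 (mm10). Whether intronic reads were counted is not given in the sources used here, and the labels and the methods name different versions of the 3' kit. The 8 genes, the pathway lists and the markers were chosen with earlier results of these data known.

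Kept barcodes had at least 500 genes, at most 10% mitochondrial and at most 1% hemoglobin UMIs. They were normalized with SCTransform, integrated on 3000 genes (the 8 genes and the pathway genes left out of the genes used to cluster), and clustered on 200 components at resolution 1.5 (R 4.3.3, Seurat 5.3.0, sctransform 0.4.2), after the study's methods. Endothelial-like cells were reclustered on 30 components at resolution 0.3. A cluster took the name with the most markers found, at least 3. For endothelial subtypes a marker had to be 2-fold above the lower quartile of the other clusters, a rule set after stricter ones had left capillary clusters unnamed. Scrublet (scanpy 1.11.5) marked 21 and 2 cells, which is too few to have worked, so no cell was removed and leaving out the 5% with the highest scores was an alternative.

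Levels carry exact Poisson intervals, shares Clopper-Pearson intervals and CFA to PBS ratios exact conditional intervals (scipy 1.17.1). Genes under a mean of 20 CPM were left out of every count past 1.5-fold. Named were the 8 genes, the pathway genes past 1.5-fold (a few others, such as Cav1, Cpt1a, Tcf4 and Flt1, were added for their role after their values were seen), and the 3 genes with the highest correlation of log2(CPM + 10) with each member. With 1 library per condition there was no test between conditions. The counting steps were tested on simulated data. Reads of Fabp5 may be shared with 2 near-identical gene copies outside the count tables, and Lpl contains a repeat stretch found in 44 other genes. Alternatives covered barcode limits, resolution, clustering genes, integration, naming of single cells, doublets, scaling, weight of cells, the filter on low values and thinning to 2000 UMIs. Mitochondrial share, gene length classes, single capillary clusters and an unnamed cluster were added after seeing the data.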

Additional observations from a re-analysis of the deposited data

Results flagged for a closer look

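The CFA to PBS ratio of 5 of the 8 genes went in opposite directions in different cell types, each beyond counting error. The share of all genes that do so was not counted, so the count does not set these genes apart. With 1 library per condition none of these differences was tested. Lpl stood at 3.84 of its PBS level in Schwann-like cells (2.18 to 7.23) and at 0.217 in B cell-like cells (0.108 to 0.402). Cd36 was at 2.28 in Schwann-like cells (1.47 to 3.61) and at 0.122 in tenocyte-like cells (0.0618 to 0.220). Fabp4 was at 1.38 in Schwann-like cells (1.12 to 1.69) and at 0.0789 in tenocyte-like cells (0.0617 to 0.0995). Fabp5 was at 5.52 in neutrophil-like cells (3.57 to 9.0), from 21 UMIs in PBS and 478 in CFA, and at 0.196 in chondrocyte-like cells (0.140 to 0.271). The make-up of both classes differed between the libraries. A neutrophil-like cluster held 17 PBS and 184 CFA cells, and a chondrocyte-like cluster 29 PBS and 0 CFA cells. The part of this make-up in the ratios was not tested. Pparg was at 1.15 in capillary-like cells (1.06 to 1.25) and at 0.303 in neutrophil-like cells (0.132 to 0.709), the latter from 12 UMIs in PBS and 15 in CFA and under the mean of 20 CPM used elsewhere. Lpl, Cd36 and Fabp4 were found in 0.334, 1.0 and 5.02% of thinned Schwann-like cells of PBS. In CFA they were found in 2.20, 4.12 and 4.40% of them. In Schwann-like cells 6 endothelial naming markers stood at 1.56 to 3.54% of their endothelial level in PBS and 0.893 to 4.08% in CFA. Lpl stood at 1.57 and 4.88% there, Cd36 at 1.14 and 2.27% and Fabp4 at 0.711 and 2.09%. The level of stray RNA was not measured. In tenocyte-like cells 6 endothelial naming markers stood at 1.97 to 3.99% of their endothelial level in PBS and 0.180 to 0.736% in CFA, and Cd36 (4.36 and 0.468%) and Fabp4 (5.0 and 0.841%) were lower along with them. The part of stray RNA in these ratios was not tested.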

How the results depend on the processing

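No paired analysis was possible because each condition had 1 library. The count of the 8 genes at least 1.5-fold apart in endothelial-like cells was 4 in all 12 repeats with settings chosen at the start, although with each cell given equal weight it was 1 higher (Lpl) and 3 lower (without Gpihbp1), and 6, all lower in CFA, among cells over 1% mitochondrial. In capillary-like cells the count of 5 was 4 or 5 in those repeats and moved to 3 (1 higher, 2 lower) when genes were scaled within gene length classes, where Cd36 was at 1.25, Fabp4 at 0.776 and Tcf15 at 0.825. The count at least 2-fold above venular-like cells ranged from 4 to 7 and that of genes highest in endothelial-like cells from 5 to 7, with Tcf15 and Lpl changing sides. With no filter on low values 23 pathway genes of 80 passed 1.5-fold in endothelial-like cells (8 higher, 15 lower) instead of 6, where 21.1% of all genes were higher and 23.1% lower. Over those repeats the capillary-like ratio was 0.509 to 0.637 for Fabp4, 0.363 to 0.517 for Fabp5, 0.538 to 0.649 for Tcf15, 0.786 to 0.890 for Gpihbp1, 0.743 to 0.871 for Meox2 and 1.04 to 1.16 for Pparg, and the endothelial-like ratio of Lpl was 0.989 to 1.72. Gpihbp1 in capillary-like cells was at 1.17 when scaled within gene length classes, and Pparg at 0.899 among cells over 1% mitochondrial. The cause of these shifts was not tested. Without integration the capillary-like cells fell into a cluster of 554 PBS and 19 CFA cells and another of 5 PBS and 378 CFA cells. With 1 library per condition, depth is not the limit for the abundant members, and the spread between animals cannot be given.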

Other observations

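Outside the named classes, the largest amount of Fabp5 in PBS lay in a cluster that passed no naming rule (97 PBS and 152 CFA cells), at 6903 CPM in PBS and 880.2 in CFA. Of its 10653 Fabp5 UMIs in PBS, 10364 (97.3%) came from 13 barcodes, all of which also had UMIs of the keratin gene Krt14 (1320 in all). These barcodes lie in a cluster that held 57.9% of all Fabp5 UMIs of the PBS library. In CFA only 2 barcodes of this cluster reached 50 Fabp5 UMIs, and neither had Krt14.

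A second unnamed cluster had endothelial markers but few UMIs per cell (medians of 1570 in PBS and 1324 in CFA) and was left out of the endothelial-like cells. Its 52 PBS cells had 393.6 CPM of Lpl and 1619 of Cd36, and its 169 CFA cells 1468 and 3225. Gpihbp1 stood at 304.5 and 524.4 CPM there and Pparg at 675.8 and 475.7.

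Among the osteoblast-like cells, Lpl followed the adipocyte gene Adipoq. In PBS, 14 cells with Adipoq held 522 Lpl UMIs (2834 CPM) and had 380.1 CPM of Pparg, and the 21 cells without it had 8.85 and 17.7 CPM. In CFA, 4 cells with Adipoq had 799.7 CPM of Lpl and 25 cells without it 138.2.

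Meox2 was also found in a small unnamed cluster of 13 PBS and 8 CFA cells, at 461.7 and 172.4 CPM, with Tcf15 at 0 UMIs in both. These Meox2 levels rest on 37 UMIs in PBS and 7 in CFA.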
